A study of Mus musculus with 10 samples.

Results

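Genes that were near-silent in the cortex of wild-type (WT) mouse embryos and higher in every embryo homozygous for a gene trap allele of Gatad2b (KO) were examined as a set. The level of a gene in an embryo, in CPM, was its number of unique molecular identifiers (UMIs, 1 per captured RNA molecule) among 1000000 UMIs of that embryo. Cells entered with 1000 UMIs or more, of which no more than 10% were mitochondrial. A gene belonged to the set if its WT mean was under 1 CPM, its KO mean was at least 0.3 CPM and at least 2 times the WT mean, and every KO embryo was above every WT and heterozygous (Het) embryo. Genes with symbols starting with Hox, Hist, Hba- or Hbb-, and Sall4 and Crabp2, were left out by name. Of 31053 genes in the files, 1972 had such WT and KO levels before the ratio and the separation were asked for, and 71 met the whole rule. With WT and KO exchanged, 95 of 2230 genes met it. Aqp1 and Clic6, markers of the choroid plexus, were among the 95, and the 8 markers of this tissue summed to 6.33 to 1818.8 CPM in the WT embryos, 2.86 to 6.58 CPM in the Het embryos and 2.68 to 4.01 CPM in the KO embryos. Their part in that count was not tested. The genes were thus chosen by their KO, WT and Het values, and every value of KO against WT or Het is a description and carries no test. Het against WT also uses WT values that the rule held low, and no p-value is given for its genes.

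The libraries held cells of the cortex of embryos at E16.5 on a C57BL/6N-Atm1Brd background, with 1 library per embryo and 3 WT, 4 Het and 3 KO embryos. The mutant allele, called stop, is the tm1a allele, in which a trapping cassette with lacZ and a promoter-driven Neo gene sits in an intron near the start of Gatad2b (Het, stop/+ and KO, stop/stop). It is present in the whole animal and not in the cortex alone. The libraries read the 3′ end of transcripts, away from that intron. Gatad2b was at 132.1 to 141.7 CPM in the WT embryos, 88.1 to 96.6 CPM in the Het embryos and 49.5 to 58.2 CPM in the KO embryos, in the order of the labels and without overlap. Where the UMIs that remain in KO come from was not tested. The library names carry 2 prefixes, of which one holds the WT embryos and Het 4 and the other Het 1 to 3 and the KO embryos. What the prefix stands for is not given in the sources used here, and KO against WT cannot be told apart from it.

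GATAD2B, also called p66β, is a subunit of the nucleosome remodeling and deacetylase (NuRD) complex, which joins a chromatin remodeling ATPase to histone deacetylases. The p66 subunits link the part that holds the deacetylases and the methyl-CpG binding proteins to the remodeling part. NuRD is known for limiting the transcription of genes of other lineages in differentiating cells, and also for tuning genes that are already active. Over the development of the cortex, radial glia give rise to intermediate progenitors of the subventricular zone and these to neurons of the deep and upper layers, while interneurons arrive from the ganglionic eminences.

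Averaged over all kept cells, the set stayed at a low level in every genotype. Near-silent refers to this mean alone. Within single classes of cells some of its genes were higher, also in WT, as given below. The WT means of its genes ranged from 0.0405 to 0.938 CPM with a median of 0.304, the Het means had a median of 0.450 and the KO means ranged from 0.306 to 7.03 CPM with a median of 0.894. A single gene passed 3 CPM in KO, 30 were at 1 CPM or above, and behind the KO mean of a gene stood 88 to 2048 UMIs. The ratio of the KO to the WT mean was 2.01 to 11.0 with a median of 2.54, and 33 genes were under a ratio of 2.5 while 18 were at 3 or above. Summed over the 71 genes, the level was 30.3, 30.0 and 28.1 CPM in the WT embryos, 45.4, 41.9, 44.6 and 44.6 CPM in the Het embryos and 81.2, 80.9 and 84.0 CPM in the KO embryos. The highest of the KO embryos was KO 1 for 21 genes, KO 2 for 24 and KO 3 for 26.

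**Figure D1:**
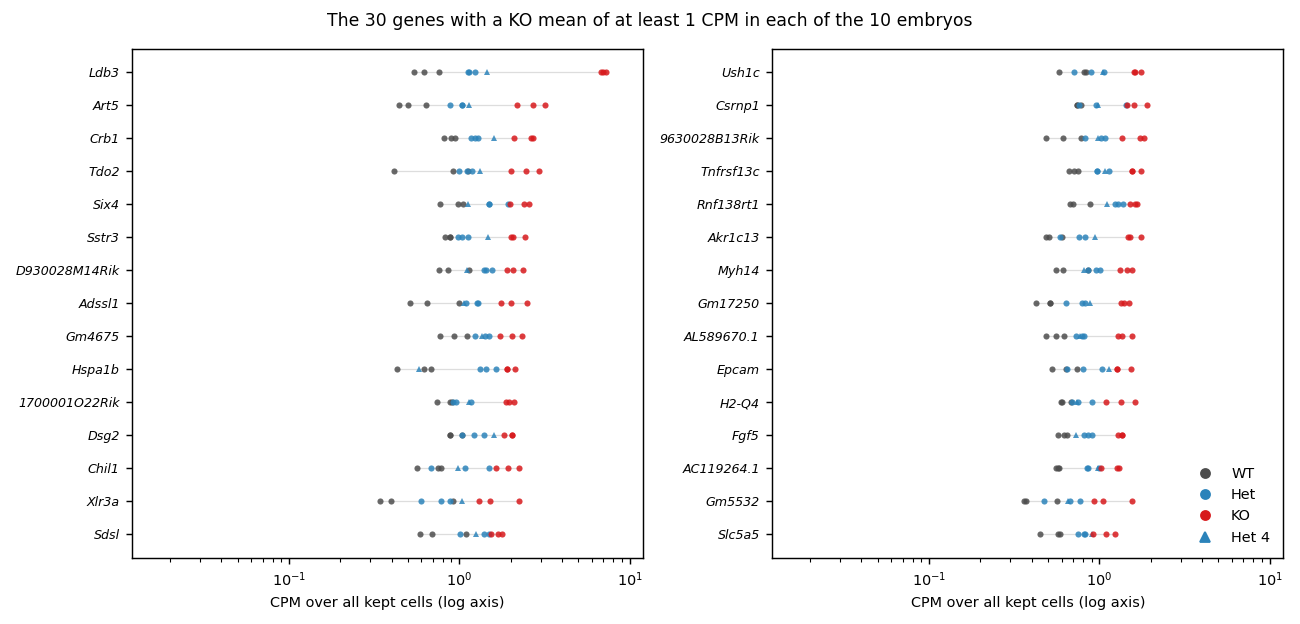
Level of the 30 genes with a KO mean of at least 1 CPM in each of the 10 embryos, in CPM over all kept cells on a log axis, with 1 point per gene and embryo (WT gray, Het blue, KO red, Het 4 as a triangle) and genes ordered by their KO mean. Ldb3 stands apart at the top with a KO mean of 7.03 CPM, and in every row the 3 red points lie to the right of all others, as the rule demands.

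Ldb3 held the highest KO level and the largest ratio of the set. It encodes a protein with PDZ and LIM domains that sits at the Z-disc of striated muscle. The gene lies on the reverse strand of chromosome 14 (GRCm38, chr14:34526603-34588682). Its level was 0.618, 0.540 and 0.763 CPM in the WT embryos, 1.24, 1.147, 1.13 and 1.46 CPM in the Het embryos and 7.30, 6.99 and 6.81 CPM in the KO embryos. No embryo of one genotype overlapped with another, and the KO mean was 11.0 times the WT mean. The gene that followed by level, Art5, encodes an ADP-ribosyltransferase (chr7:102096879-102109489, reverse strand). It was at 0.636, 0.498 and 0.444 CPM in the WT embryos, 1.04, 0.879, 1.04 and 1.14 CPM in the Het embryos and 2.19, 3.20 and 2.71 CPM in the KO embryos, a ratio of 5.13 between the means. Again the genotypes did not overlap. Gpat3 (chr5:100845713-100899102, forward strand), an acyltransferase of the first step of triglyceride synthesis, differed from these in that Het stayed near WT. It was at 0.231, 0.270 and 0.134 CPM in the WT embryos, 0.240, 0.247, 0.329 and 0.323 CPM in the Het embryos and 1.05, 0.796 and 0.904 CPM in the KO embryos. Its Het and WT embryos overlapped, and the KO mean was 4.33 times the WT mean.

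Methyl-CpG binding proteins are partners of NuRD, and so the promoters of these 3 genes are shown with their CG pairs in capitals. Each window runs from 250 bases before the start of the gene to 50 bases after it, in the direction of the gene, from RefSeq on GRCm38.p6. They lie at chr14:34588632-34588931 for Ldb3 (the start that GENCODE also gives), chr7:102100180-102100479 for Art5 and chr5:100845979-100846278 for Gpat3. The RefSeq start of Art5 is base 102100230 and that of Gpat3 base 100846229, both inside the GENCODE genes given above, which start at 102109489 and 100845713.
Ldb3: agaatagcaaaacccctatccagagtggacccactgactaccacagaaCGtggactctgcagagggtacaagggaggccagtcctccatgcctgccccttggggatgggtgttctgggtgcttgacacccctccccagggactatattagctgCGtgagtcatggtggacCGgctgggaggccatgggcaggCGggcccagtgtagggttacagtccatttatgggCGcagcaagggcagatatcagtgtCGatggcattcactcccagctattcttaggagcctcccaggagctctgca
Art5: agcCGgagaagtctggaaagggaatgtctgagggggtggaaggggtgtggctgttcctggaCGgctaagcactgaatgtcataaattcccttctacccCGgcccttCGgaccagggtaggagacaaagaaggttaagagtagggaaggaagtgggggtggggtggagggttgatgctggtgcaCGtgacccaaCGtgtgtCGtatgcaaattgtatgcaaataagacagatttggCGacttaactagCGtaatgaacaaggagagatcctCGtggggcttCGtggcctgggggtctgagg
Gpat3: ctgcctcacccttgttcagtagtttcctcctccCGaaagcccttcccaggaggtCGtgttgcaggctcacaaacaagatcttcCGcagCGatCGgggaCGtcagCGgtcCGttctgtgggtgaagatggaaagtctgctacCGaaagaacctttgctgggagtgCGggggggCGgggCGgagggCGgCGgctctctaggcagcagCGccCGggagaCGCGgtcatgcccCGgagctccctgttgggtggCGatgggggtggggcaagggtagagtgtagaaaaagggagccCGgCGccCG
The Ldb3 window held 6 CG pairs, and 47.9% of the 32851 promoters of the table held as many or fewer. The Art5 window held 11, and the Gpat3 window 23, a number that 21.5% of all promoters reached, against a median of 7. The 3 promoters thus ran from near the median to rich in CG. A promoter was found for 55 of the 71 genes, which is 77.5%, so that a check of base composition over the whole set is void. Neither methylation nor binding was measured in these libraries.

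Among the transcription factors of the set, Six4 was the most abundant. It is a homeobox factor of muscle, placode and kidney development, and was at 0.978, 0.768 and 1.05 CPM in the WT embryos, 1.92, 1.5, 1.5 and 1.12 CPM in the Het embryos and 2.39, 1.98 and 2.56 CPM in the KO embryos. Het 4 was the lowest of the Het embryos and close to the highest WT embryo. En2, a homeobox factor of the midbrain and hindbrain border, was lower, at 0.157, 0.0675 and 0.0825 CPM in WT, 0.293, 0.225, 0.257 and 0.178 CPM in Het and 0.484, 0.579 and 0.376 CPM in KO. Its genotypes lay in 3 steps with no overlap. Neurog1, a proneural factor, did not show such steps. Its embryos were at 0.203, 0.380 and 0.196 CPM in WT, 0.366, 0.397, 0.226 and 0.501 CPM in Het and 0.749, 0.603 and 0.670 CPM in KO, with WT and Het overlapping. Mafa, a factor of the insulin gene in pancreatic beta cells, had means of 0.190 ± 0.0765 CPM in WT (SD, n = 3), 0.383 ± 0.0308 in Het (n = 4) and 0.604 ± 0.0519 in KO (n = 3). Hmx1, a homeobox factor of the eye and ear, had means of 0.107 ± 0.0284, 0.186 ± 0.0346 and 0.348 ± 0.0378 CPM in the same order. Trim71, an RNA-binding ubiquitin ligase of the early embryo, had means of 0.304 ± 0.122, 0.512 ± 0.104 and 0.804 ± 0.0930 CPM.

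Further genes known from muscle had lower levels and ratios than Ldb3. Adssl1, the muscle form of an enzyme of AMP synthesis, was at 0.646, 0.996 and 0.516 CPM in the WT embryos, 1.10, 1.28, 1.29 and 1.07 CPM in the Het embryos and 1.76, 2.02 and 2.49 CPM in the KO embryos. WT 2 stood close to the lowest Het embryo. Myl2, the regulatory light chain of the heart ventricle, was at 0.332, 0.439 and 0.629 CPM in WT, 0.659, 0.751, 0.535 and 0.703 CPM in Het and 0.996, 1.04 and 0.813 CPM in KO. Its ratio of 2.03 was among the 5 lowest of the set. Pgam2, the muscle form of phosphoglycerate mutase, had means of 0.155 ± 0.0563 CPM in WT and 0.447 ± 0.0682 CPM in KO, and Mypn, a protein of the sarcomere, had means of 0.124 ± 0.0464 and 0.367 ± 0.0627 CPM.

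Receptors, adhesion proteins and secreted signals of several tissues were also in the set. Crb1, an apical polarity protein of the retina and neural epithelium, was at 0.895, 0.945 and 0.815 CPM in the WT embryos, 1.30, 1.23, 1.17 and 1.61 CPM in the Het embryos and 2.70, 2.09 and 2.62 CPM in the KO embryos. The 3 genotypes did not overlap. Sstr3, a somatostatin receptor of the neuronal cilium, was at 0.830, 0.886 and 0.877 CPM in WT, 1.12, 0.987, 1.04 and 1.47 CPM in Het and 2.07, 2.02 and 2.45 CPM in KO. Tnfrsf13c, a receptor for a survival factor of B cells, had means of 0.707 ± 0.0474 CPM in WT, 1.04 ± 0.0859 in Het and 1.61 ± 0.119 in KO. Epcam, an epithelial adhesion molecule, was at 0.526, 0.633 and 0.743 CPM in the WT embryos, 0.805, 1.03, 0.648 and 1.13 CPM in the Het embryos and 1.26, 1.53 and 1.27 CPM in the KO embryos, with Het 3 inside the WT range. Dsg2, a desmosomal cadherin, had means of 0.935 ± 0.0844, 1.31 ± 0.243 and 1.97 ± 0.128 CPM in WT, Het and KO. Cngb1, a subunit of the cyclic nucleotide-gated channel of rods, had a WT mean of 0.109 ± 0.0435 CPM, a Het mean of 0.284 ± 0.0293 CPM and a KO mean of 0.491 ± 0.10 CPM, a KO to WT ratio of 4.49. The secreted factors Fgf5, Sct (secretin) and Wisp1 had ratios of 2.18, 2.32 and 2.37. Chil1, a secreted chitinase-like protein, had a ratio of 2.78.

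Enzymes and transporters of other organs made up a further group. Tdo2, a tryptophan-degrading enzyme best known from liver, was at 0.913, 1.12 and 0.413 CPM in the WT embryos, 1.18, 0.997, 1.11 and 1.33 CPM in the Het embryos and 2.95, 2.00 and 2.46 CPM in the KO embryos. WT 2 lay inside the Het range, and WT 3 was the lowest by far. Slc5a5, the iodide transporter of the thyroid, and Iyd, which recovers iodide from iodotyrosines, had ratios of 2.01 and 2.08. Mogat2, an acyltransferase of fat uptake in the gut, had means of 0.131 ± 0.0185 CPM in WT, 0.183 ± 0.0519 in Het and 0.418 ± 0.118 in KO. Sdsl, a serine dehydratase-like enzyme, had means of 0.792 ± 0.266, 1.29 ± 0.213 and 1.67 ± 0.125 CPM. Aldh3b1, an aldehyde dehydrogenase, stood out by its Het mean of 0.283 ± 0.0388 CPM beside a WT mean of 0.274 ± 0.0476 CPM and a KO mean of 0.654 ± 0.0290 CPM.

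The remaining genes included a chaperone, antigen-presenting molecules and non-coding RNAs. Hspa1b, an inducible heat shock protein, was at 0.682, 0.625 and 0.433 CPM in the WT embryos, 1.33, 1.43, 1.63 and 0.582 CPM in the Het embryos and 1.91, 2.11 and 1.92 CPM in the KO embryos. Het 4, which shares the library prefix of the WT embryos, was inside their range, whereas Het 1 to 3 were above it. Xlr3a, an X-linked lymphocyte-regulated gene, was at 0.922, 0.397 and 0.340 CPM in WT, 0.878, 0.783, 0.596 and 1.03 CPM in Het and 1.53, 2.26 and 1.30 CPM in KO. H2-Q4 and H2-Q7, non-classical class I molecules, had ratios of 2.15 and 2.66. Hspa1b, H2-Q4, H2-Q7, Xlr3a, Akr1c13 and Hmga1b have near-identical copies between which reads can be split, so their levels are uncertain. Of the genes without a known role, A730046J19Rik, annotated as protein coding, was at 0.175, 0.177 and 0.124 CPM in WT, 0.439, 0.375, 0.288 and 0.299 CPM in Het and 1.13, 0.808 and 0.884 CPM in KO, in 3 steps without overlap and with a ratio of 5.93. 1700009C05Rik, a long intergenic RNA, reached a ratio of 5.84 with a Het mean of 0.0954 ± 0.0453 CPM near its WT mean of 0.0716 ± 0.0237 CPM. Gm32352, an antisense RNA, had the second largest ratio, 7.93, over only 13 WT UMIs.

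Other genes of the set lay in the same range. Of the more abundant ones, D930028M14Rik, a long intergenic RNA, had means of 0.920 ± 0.203 CPM in WT and 2.12 ± 0.239 in KO, and the coding gene 1700001O22Rik had 0.841 ± 0.0864 and 1.97 ± 0.109 CPM. Ush1c, a scaffold protein of hair cell bundles, had 0.746 ± 0.142 CPM in WT and 1.65 ± 0.0829 in KO, and Csrnp1, a nuclear factor of immediate early responses, had 0.754 ± 0.0265 and 1.65 ± 0.231 CPM. Rnf138rt1 had means of 0.751 ± 0.111 and 1.59 ± 0.0821 CPM and Akr1c13, an aldo-keto reductase, 0.530 ± 0.0606 and 1.58 ± 0.154 CPM. Fam83g was lower, with 0.128 ± 0.0174 CPM in WT and 0.484 ± 0.108 in KO, but had one of the larger ratios at 3.79. Paupar, a long non-coding RNA next to the radial glia factor Pax6, had means of 0.278 ± 0.0389 and 0.640 ± 0.0329 CPM. The coding genes Myh14, Hipk4, Greb1, Krtcap3, E130208F15Rik and Hpdl and the non-coding Gm5532, Gm13269, Mypopos, Gm16087, Gm35963, Gm26571, Gm11884 and Gm39132 had ratios from 2.02 for Gm39132 to 2.96 for Gm35963.

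**Figure D2:**
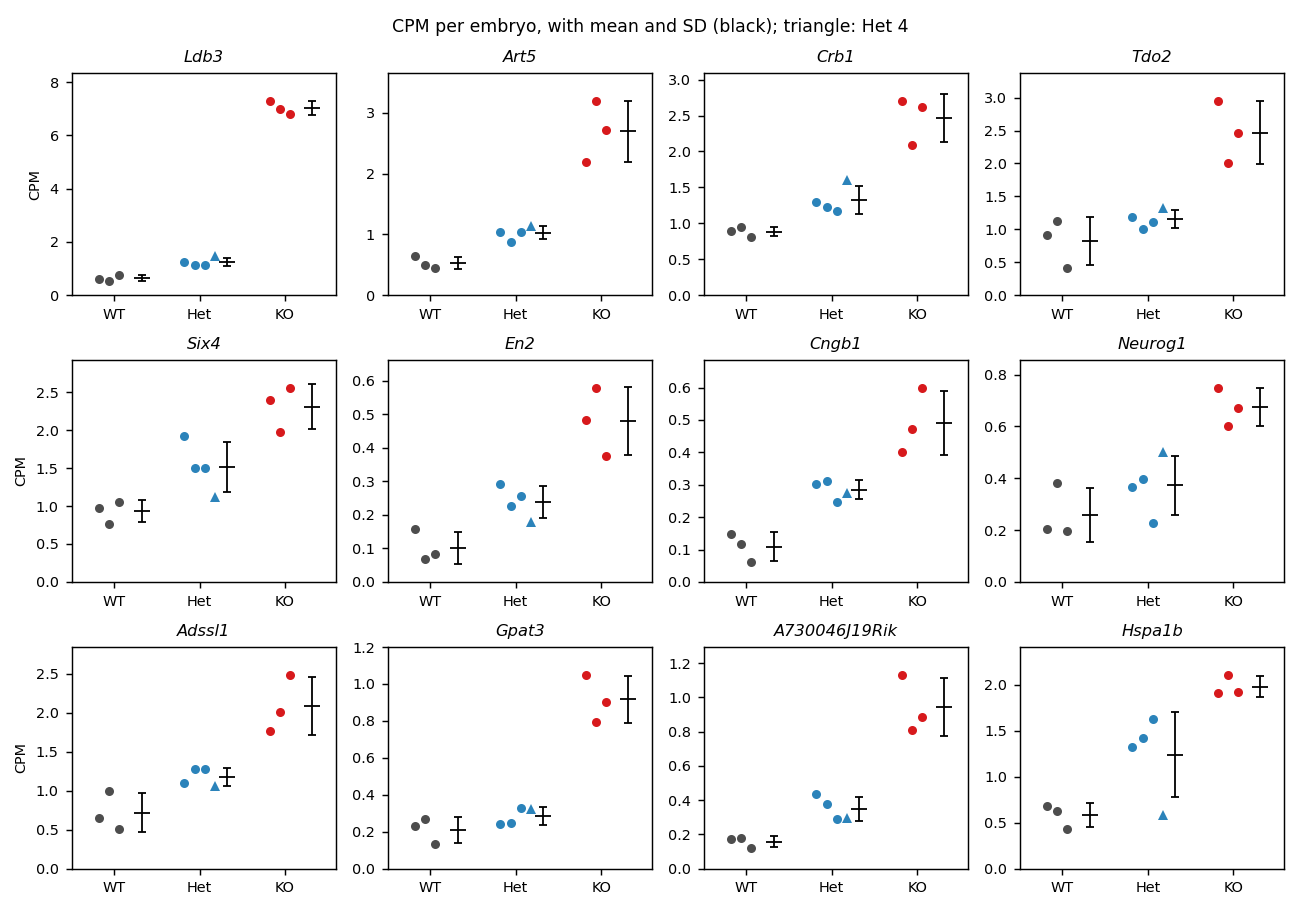
CPM of 12 genes of the set, with 1 point per embryo (Het 4 as a triangle) and the mean and SD of each genotype in black, each panel with its own axis from 0. Het 4 lies with the Het embryos in most panels but with the WT embryos for Hspa1b, at 0.582 CPM.

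Lists of genes of other lineages, chosen with earlier results of these data known, put the set in context. Of 132 regional patterning transcription factors, 16 were near-silent in WT with a KO mean of at least 0.3 CPM, and 2 of these, En2 and Six4, met the whole rule. The KO mean was above the WT mean in 11 of the 16 and the median log2 ratio of KO to WT was 0.32. The muscle list had 9 such genes, with Ldb3 and Myl2 in the set and 7 of 9 above WT. Xlr3a was the 1 gene of 14 from the germ-line list, of which 8 were above and 6 below WT, Trim71 the 1 of 4 from the pluripotency list, with 3 above and 1 below, and Epcam the 1 of 3 from the epithelial list, in which the other 2 were below WT. Among all 1972 genes in this range, 71 met the whole rule, 1098 had a KO mean above the WT mean, the median log2 ratio was 0.06, and 9.89% had every KO embryo above every other embryo.

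The limits of the rule cut through a continuous range. Mstn at a ratio of 1.98 and Sfrp4 at 1.98 fell just short of it, beside Slc5a5 at 2.01 and Slc22a18 at 2.02 inside. Adamts13 was left out with a KO mean of 0.297 CPM and a ratio of 4.95, and Tomt was kept with 0.306 CPM and 2.27. On the WT side Hspa1a, at 1.29 CPM in WT and 2.79 CPM in KO, and Gsx2, at 1.34 and 3.28 CPM, were left out. Gm4675, Dsg2 and Six4 were the genes kept with the highest WT means, from 0.933 to 0.938 CPM.

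The Het embryos were the group least used by the rule, which held them below KO and the WT embryos low but did not fix their order. The Het mean was above the WT mean in 71 of 71 genes, against 49.7% of the 1972 genes in the range. Every Het embryo was above every WT embryo in 29 of 71 genes, against a background of 5.12%. Since WT was held under a limit and KO at 2 times WT, these counts are descriptions. Het 4, which has the library prefix of the WT embryos, was above all 3 of them in 55 of 71 genes, against 23.9% of the genes in the range, and was above the mean of Het 1 to 3 in 38. On a scale on which the WT mean is 0% and the KO mean 100%, the Het mean had a median position of 27.8%, and 66 genes were under 50%. The positions ran from 2.35% for Aldh3b1 and 2.73% for Iyd to 59.6% for Rnf138rt1, a retrogene, with Ldb3 at 9.48% and Art5 at 22.9%. The median position was 28.5%, 19.7%, 28.9% and 28.2% in Het 1, 2, 3 and 4.

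Het was compared with WT by edgeR's quasi-likelihood test on UMIs summed per embryo, over all 17647 genes that passed its filter on low counts and with all 10 embryos in the fit. With limits of 0.05 for the Benjamini-Hochberg adjusted p and of 0.25 for the size of the log2 fold change, 278 genes (1.58%) were called higher and 247 (1.40%) lower in Het. All 71 genes of the set were in the fit, and 16 were past these limits upward and 0 downward. At an unadjusted p under 0.05, 46 of them were higher in Het, while 26.9% of all genes tested were past it in either direction. Because the rule chose the set by low WT values and bounded the Het values from above, these counts are descriptions and nothing is read from them. The median log2 fold change of the set was 0.59, and that of all genes tested 0.00. Ldb3 was higher in Het by 1.01 on the log2 scale (SE 0.13). Cngb1 had the largest difference of the 16 at 1.39, 4930557F10Rik followed at 1.23, and A730046J19Rik, Mafa and Art5 were at 1.16, 1.03 and 0.99. The others named here lay lower, with Rnf138rt1 at 0.77, Six4 at 0.74, AC119264.1 and Gm17250 at 0.73, Slc5a5 at 0.66, Crb1 at 0.62, Tnfrsf13c and Gm4675 at 0.59 and AL589670.1 at 0.52. En2 at 1.24, Hspa1b at 1.12 and Tdo2 at 0.52 were not among the 16.

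Over all genes, the number past the limits moved when single libraries were left out, and the count of the set moved with it. With the library prefix as a term, the contrast rests on 1 Het embryo, Het 4, against the WT embryos. A part of the prefix and the loss of replicates cannot be told apart in that fit, and only sizes are given for the set. The WT values that the rule held low enter it, so its signs are descriptions. Ldb3 was at 1.21 on the log2 scale. The median log2 fold change was 0.61 in the set and -0.002 over all genes tested, and 67 of 71 genes of the set were above 0. The other 4 were Tomt at -0.87, Slc22a18 at -0.62, Aldh3b1 at -0.16 and Gm13269 at -0.05. Without Het 4 the count was 29 of the 71, without WT 1, WT 3 or Het 1 it was 2, without WT 2 it was 6, without Het 2 or Het 3 it was 5 and 4, and without KO 1 or KO 3 it was 9. With the WT and Het embryos alone in the fit, it was 3 of 69 genes tested. Of all genes tested, 5.14% were called higher without Het 4 and 0.66% without WT 2. Without WT 1, WT 3 or Het 1 the share was 0.19%, 0.307% and 0.29%. It was 0.471% and 0.438% without Het 2 or Het 3, 0.787% and 0.771% without KO 1 or KO 3, and 0.454% with WT and Het alone. The swing was thus one of the whole test, and nothing is read from it about the set.

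The cells were grouped into 26 clusters, which were given the name of a class, written X-like, where the markers of that class led. The thresholds of the naming were set after the clusters were seen. Of the UMIs of the set in the KO embryos, 29.8% lay in layer V-VI-like neurons (12318 cells in all embryos) and 25.05% in layer II-IV-like neurons (16085 cells). These shares were near those of all KO UMIs, 28.9% and 27.0%. Subventricular zone-like cells, the intermediate progenitors, held 10.9% of the UMIs of the set and 6.10% of all UMIs, and radial glia-like cells 5.79% and 4.57%. Dividing cells held 7.63% and 6.35%. The median over genes was below the share of all UMIs in the subventricular zone-like (5.30%), radial glia-like (3.57%) and dividing cells (3.57%). It was also below it in layer V-VI-like (24.1%) and layer II-IV-like neurons (24.2%). The larger shares of the progenitor classes were thus those of the summed set and not of the median gene. Interneuron-like cells, striatal inhibitory-like cells and cluster 4, which was led by Tfap2d and Thsd7a, held less of the set than of all UMIs, namely 5.46% against 6.999%, 3.83% against 5.25% and 4.70% against 7.46%. Cluster 12, taken as radial glia-like, also had the highest score for oligodendrocyte precursors, and cluster 14 of the dividing cells was led by Ttr, a gene of the choroid plexus, beside genes of mitosis. Cluster 11, which gave the dividing cells 2076 of their cells, scored 3.44 for ganglionic eminence progenitors and 3.37 for dividing cells. Cluster 23 of the interneuron-like class, with 310 cells, scored 1.13 for layer II-IV and 0.789 for interneurons.

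**Figure D3:**
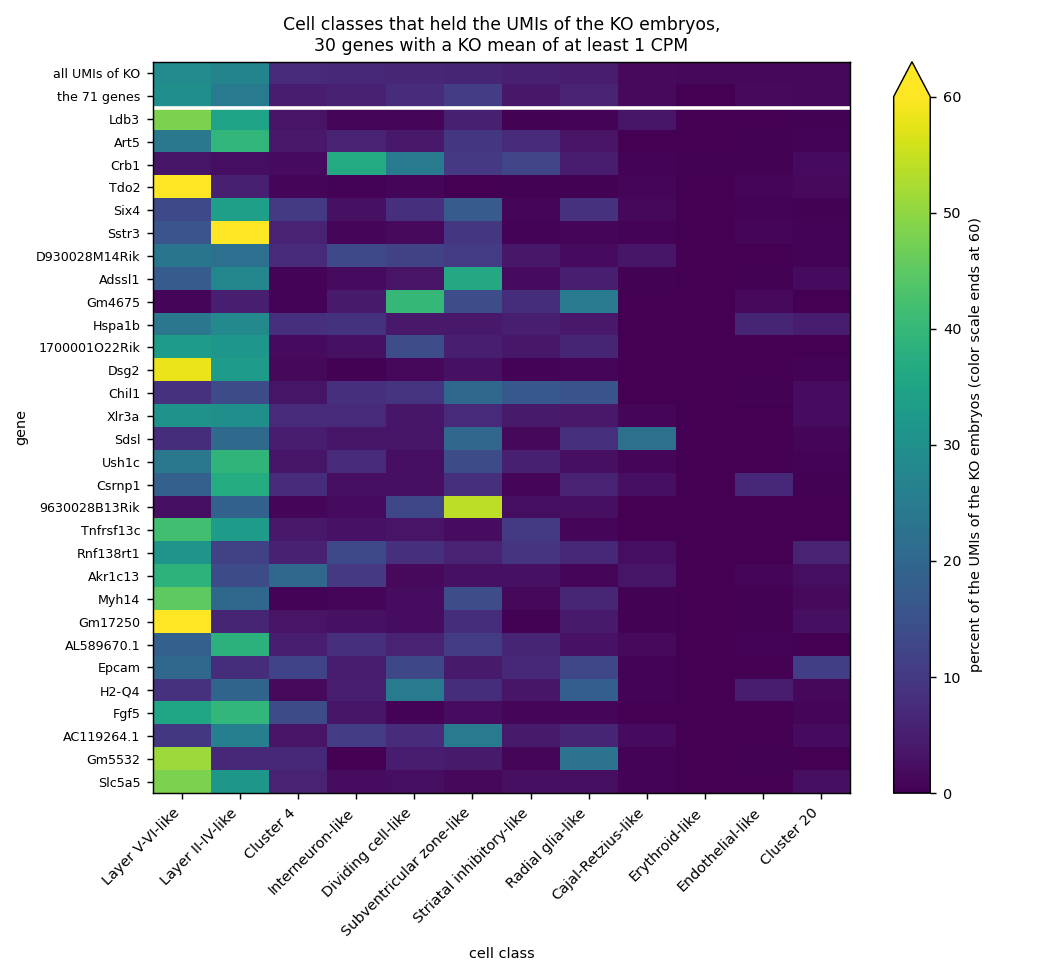
Share of the UMIs of the KO embryos in each of the 12 classes with at least 1% of the KO UMIs. It is given in percent by color, with the scale ending at 60. The rows are all genes, the 71 genes together and the 30 of them with a KO mean of at least 1 CPM. Tdo2 and Gm17250 are yellow in layer V-VI-like neurons (88.0% and 69.5%), Sstr3 in layer II-IV-like neurons (62.0%) and Crb1 is brightest in interneuron-like cells (36.6%).

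Within a class the summed level of the set was again compared as CPM of that class, as a description. Among the 12 classes with at least 1% of the KO UMIs, its mean was highest in subventricular zone-like cells in every genotype, with 64.6 CPM in WT, 88.4 in Het and 147.9 in KO. In WT the order was not that of each embryo, since dividing cells were above them in WT 1 (67.2 against 64.2 CPM) and WT 3 (57.1 against 56.3 CPM). Radial glia-like cells had 54.6, 73.4 and 105.6 CPM and dividing cells 59.8, 66.9 and 98.6 CPM. In layer II-IV-like neurons the means were 22.2, 38.0 and 76.1 CPM and in layer V-VI-like neurons 25.2, 39.4 and 84.8 CPM, which gave the largest ratios of KO to WT among the 12 classes, 3.42 and 3.36. Lower ratios were found for the interneuron-like class (2.54), the subventricular zone-like class (2.29), the radial glia-like class (1.93) and the dividing cells (1.65). Summed over the set, progenitors thus had higher levels than the neurons of the cortical layers, and these neurons had the larger ratios. The ratio of the dividing cells moved with the clustering. At resolution 0.8, which gives finer clusters and where 788 cells led by Ttr stood apart as cluster 26, the dividing cells had 50.9 CPM in WT and 98.0 CPM in KO, a ratio of 1.92, beside 1.84 for the radial glia-like class, while cluster 26 had 95.3 CPM in WT and 62.6 CPM in KO. Every KO embryo was above every WT and Het embryo in 11 of these 12 classes. The exception was the erythroid-like class, with 2.90 CPM in WT, 2.37 in Het and 2.78 in KO. It held only 10 UMIs of the set over the KO embryos. Below the limit of 1%, the microglia-like class overlapped too, at 104.9 to 137.3 CPM in KO and 79.9 to 126.9 in Het. So did the mural-like class, at 47.7 to 110.9 CPM in KO and 47.6 to 129.7 in WT. Clusters 13, 15 and 22, also below it, had every KO embryo above all others.

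**Figure D4:**
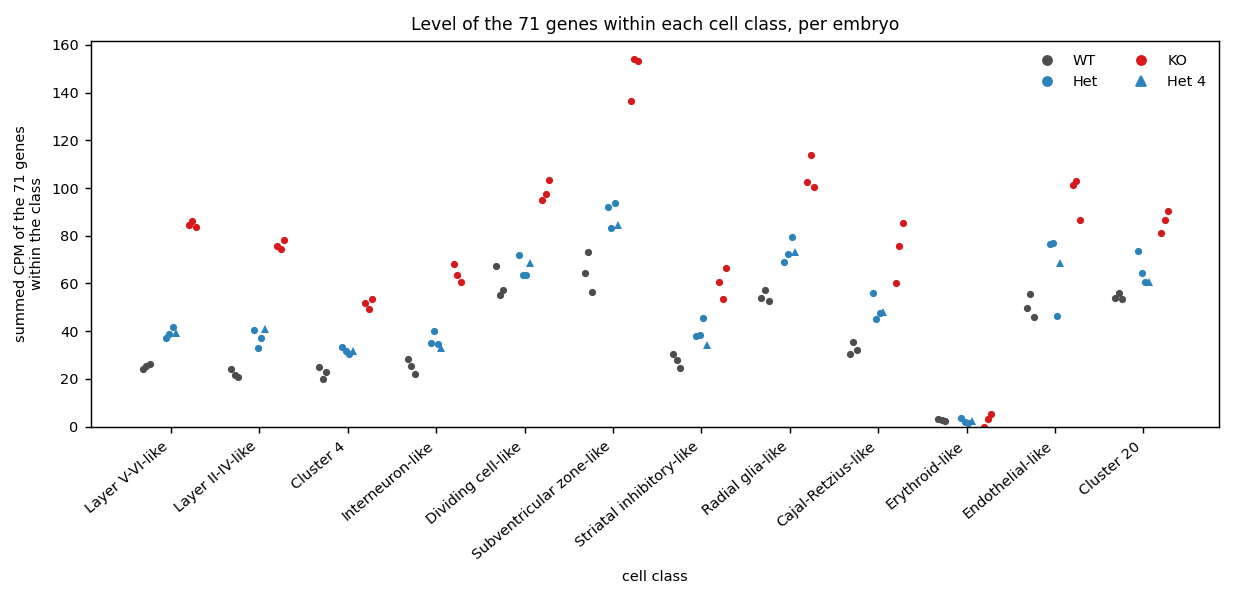
Summed CPM of the 71 genes within each of the 12 classes with at least 1% of the KO UMIs. There is 1 point per embryo (WT gray, Het blue, KO red, Het 4 as a triangle). In the layer II-IV-like neurons the KO embryos lie between 74.5 and 78.1 CPM and the WT embryos between 20.9 and 24.1 CPM, whereas the erythroid-like cells stay at 5.29 CPM or below in every embryo.

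Counted gene by gene, the KO mean was above the WT mean for 71 of 71 genes in layer II-IV-like neurons (56.3% of the 1972 genes in the range), 68 in layer V-VI-like neurons (58.8%), 62 in subventricular zone-like cells (52.0%), 56 in cells of the interneuron-like class (51.4%) and 48 in radial glia-like cells (45.7%). Every KO embryo was above every WT embryo for 57 genes in layer II-IV-like neurons (18.2% of the 1972 genes), 52 in layer V-VI-like neurons (17.2%), 29 in subventricular zone-like cells (9.84%), 26 in interneuron-like cells (9.94%), 20 in radial glia-like cells (6.09%) and 14 in dividing cells (5.07%). These counts depend on how many UMIs a class holds and on the rule, and nothing is read from them. Over the 12 classes a gene had its KO mean above its WT mean in a median of 9, from 2 to 12, and Crb1, Six4 and Adssl1 did so in all 12.

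Single genes differed in the class that held their UMIs. The class with the largest share was the layer V-VI-like neurons for 28 genes, the layer II-IV-like neurons for 26, the subventricular zone-like cells for 9 and the dividing cells for 5. In 17 genes 1 class held at least 50% of the KO UMIs, and in 58 genes some class held at least 2 times its share of all UMIs. These counts were not set against other genes of this level, and nothing is read from them. Tdo2 was the clearest case of the deep layers, with 88.0% of its KO UMIs in layer V-VI-like neurons, where it was at 2.38 ± 0.969 CPM in WT, 3.53 in Het and 7.53 ± 0.793 in KO, beside 0.480 CPM in KO layer II-IV-like neurons. A730046J19Rik followed with 85.3%, Iyd with 79.7%, 1700009C05Rik with 71.8% and Gm17250 with 69.5%. Sstr3 was the counterpart in the upper layers, with 62.0% in layer II-IV-like neurons and levels there of 1.56 ± 0.0309 CPM in WT and 5.02 ± 0.768 CPM in KO.

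Ldb3 was spread over excitatory neurons of all layers. Layer V-VI-like neurons held 48.0% of its KO UMIs and layer II-IV-like neurons 34.8%. Its level was 0.734 ± 0.315 CPM in WT and 11.8 ± 1.2 CPM in KO in the former, 0.833 ± 0.104 and 9.06 ± 0.65 CPM in the latter, and 0.423 ± 0.372 and 6.08 ± 1.02 CPM in subventricular zone-like cells. In Cajal-Retzius-like cells, early neurons of the cortical surface, Ldb3 was at 1.07 ± 0.664 CPM in WT and 14.4 ± 4.17 CPM in KO. Droplets marked as doublets, with more than 1 cell, held 33.0% of the KO UMIs of the set in this class, and this Ldb3 level was not computed without them. Interneuron-like cells stayed at 0.222 ± 0.111 CPM in WT and 0.945 ± 0.150 CPM in KO, and radial glia-like cells at 0.315 ± 0.0828 and 0.765 ± 0.426 CPM. In each of the 2 layer classes every KO embryo was above every WT embryo.

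Progenitor classes led for the proneural factor and a few other genes. Subventricular zone-like cells held 55.6% of the KO UMIs of Neurog1 and 54.1% of 9630028B13Rik. Neurog1, which is listed as a marker of the subventricular zone but was not used to name it, was at 4.6 ± 2.93 CPM in WT and 6.08 ± 1.59 CPM in KO subventricular zone-like cells, and the embryos overlapped. Adssl1 was at 6.42 ± 2.47 CPM in WT and 12.5 ± 2.17 CPM in KO there. The dividing cells held 40.6% of the KO UMIs of H2-Q7, 39.9% of Gm4675 and 36.3% of Cnpy1. Gm4675 was at 7.61 ± 2.71 CPM in WT and 12.8 ± 2.42 CPM in KO dividing cells, which overlapped.

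A few genes had their largest share in a smaller class. Crb1 was unlike the set in having 36.6% of its KO UMIs in interneuron-like cells, at 3.39 ± 0.357 CPM in WT, 5.35 in Het and 13.1 ± 2.62 CPM in KO, and 24.8% in dividing cells. Sdsl had 22.1% in Cajal-Retzius-like cells, at 13.2 ± 3.39 CPM in WT and 22.7 ± 0.719 CPM in KO. Mogat2 was nearly confined to endothelial-like cells, which held 98.3% of its KO UMIs, and was there at 8.83 ± 1.95 CPM in WT, 12.1 in Het and 32.7 ± 5.37 CPM in KO. This class was small, with 50 to 72 cells in a WT, 29 to 361 in a Het and 23 to 42 in a KO embryo, so that 1 Het embryo held 49.4% of its 731 cells. Mogat2 was at 3.29 to 15.9 CPM in the Het embryos there. With the finer clusters, the endothelial-like class held only 225 cells, with 15 to 19 in a Het embryo. Another of the finer clusters, with 374 cells of which 86.4% came from 1 embryo, was named layer V-VI-like. The Het levels of Mogat2 given here may thus mix cell types, and none is given for the finer clusters. Of the KO cells of the class of 731 cells, 39.4% were marked as doublets. With the marked cells removed, Mogat2 was at 9.44 to 13.4 CPM in WT and 9.83 to 51.4 CPM in KO, so that the groups overlapped. Cajal-Retzius-like cells were marked in 22.7% of their KO cells, and Sdsl was then at 15.2 ± 4.61 CPM in WT and 23.8 ± 3.78 CPM in KO. Of the summed levels by class, those of the same 11 classes remained higher in every KO embryo than in every other embryo once marked cells were removed.

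In single cells the genes were sparse. The share of cells with at least 1 UMI of any gene of the set was 24.9% to 31.1% in the WT embryos, 37.2% to 43.1% in the Het embryos and 58.8% to 62.8% in the KO embryos. With each cell thinned to 5000 UMIs, which left out 1198 to 1612 cells in a WT, 476 to 1099 in a Het and 339 to 729 in a KO embryo, the shares were 12.4% to 13.3%, 17.6% to 19.5% and 30.6% to 32.0%. Ldb3 was found in 0.754% to 0.820% of WT cells and 7.27% to 9.11% of KO cells, or 0.265% and 2.70% after thinning, with at most 10 UMIs in a KO cell. Tdo2 reached 14 UMIs in 1 KO cell. Of 335 erythroid-like KO cells, looked at for free RNA, 1 held a UMI of Ldb3, 0.299%. Their median was 11202 UMIs per cell, hemoglobin RNA included, against 15345 over all KO cells. How many such cells free RNA would give was not computed, so nothing about free RNA is read from this count.

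The marker levels of several cell types differed between genotypes. The summed markers of the subventricular zone stood at 143.6 to 159.2 CPM in the WT embryos, 173.5 to 236.2 CPM in the Het embryos and 219.9 to 266.0 CPM in the KO embryos, with 3 of 6 markers higher in every KO embryo, among them Neurog1, for which the rule fixed this. The 8 markers of dividing cells summed to 335.6 to 408.7 CPM in WT and 469.1 to 497.9 in KO, the 8 of layer V-VI to 652.0 to 737.3 and 869.5 to 1018.8, although 2 of these 8 were lower and 3 higher in every KO embryo, and the 8 of interneurons to 381.2 to 538.0 CPM in WT and 252.2 to 324.7 CPM in KO. The 7 markers of layer II-IV summed to 687.5 to 804.1 CPM in WT and 586.9 to 648.3 CPM in KO, and the 6 of oligodendrocyte precursors to 24.2 to 29.4 CPM and 12.4 to 16.7 CPM. Lower in every KO embryo were 1 of 7 layer II-IV, 1 of 8 interneuron and 0 of 6 oligodendrocyte precursor markers. The Het sums were 618.6 to 686.2 CPM for layer II-IV, 316.1 to 477.1 for interneurons and 13.8 to 25.3 for oligodendrocyte precursors. For dividing cells and layer V-VI they were 381.9 to 477.5 and 685.1 to 864.9 CPM. Fewer cells of a type and less RNA per cell cannot be told apart in sums over all cells. The level that each gene would have in KO if every class kept its WT level and took its KO share of UMIs was also computed. This expected level was 0.827 to 1.68 times the WT mean with a median of 1.02. Neurog1 had the largest expected change, at 1.68. For the whole set the expected sum was 31.3 CPM. The observed KO levels, at 2 times WT or more by the rule, are no test against these values.

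**Figure D5:**
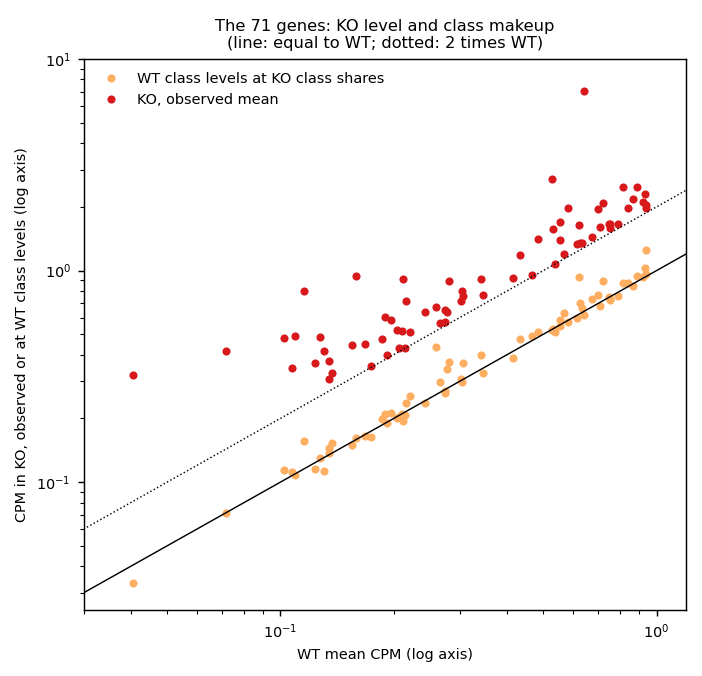
CPM in KO against the WT mean CPM of the 71 genes, both on log axes, as observed (red) and as computed from WT levels within classes and the shares of the classes in KO (orange). The orange points stay near the line of equal level, at 0.827 to 1.68 times WT, and the red points lie above the dotted line of 2 times WT, as the rule demands.

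The genes of the set were scattered over 19 chromosomes, with 11 on chromosome 7 and 8 on chromosome 5. In the GENCODE annotation of GRCm38, 51 were protein coding, 13 long intergenic non-coding RNAs and 7 antisense RNAs. Within 1 Mb of another gene of the set lay 11 of them. En2 (chr5:28165694-28172166) and Cnpy1 (chr5:28200819-28245806), a regulator of FGF signaling, lay 28653 bases apart. H2-Q4 and H2-Q7 lay 53865 bases apart, Mafa and AC119264.1 109580, Tomt and Art5 190520, H2-Q4 and Hspa1b 420379, and Sstr3 and AL589670.1 470644. Tdo2 and Gm27008 lie on chromosome 3, as does Gatad2b. In all, 24 genes overlapped a gene on the other strand, such as Gm4675 with Sox21 and Gm45371 with Zfp703. Whether the counting used strand is not given in the sources used here, and the values of these genes are uncertain to that extent.

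Neighbors outside the set were also measured. Within 50 kb of the set lay 172 other genes with at least 60 UMIs in both WT and KO, and 30 of them (17.4%) had every KO embryo above every WT and Het embryo, against 8.04% of 15652 other genes. Their median log2 ratio of KO to WT was 0.03, against -0.04. Sox21, a neural progenitor factor, was at 9.15 CPM in WT, 12.4 in Het and 16.3 in KO, and Abcc8, the sulfonylurea receptor of a potassium channel, at 7.13, 8.18 and 11.9 CPM. H1f0, a linker histone of differentiated cells, was at 138 CPM in WT and 234 CPM in KO, and Hspa1a at 1.29 and 2.79 CPM. These 4 were named after their values were seen. Sox21 is one of those that overlap a gene of the set on the other strand.

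Each embryo kept 5147 to 8103 cells and 82872641 to 123737385 UMIs, with a median of 10795 to 17077.5 UMIs per cell, and the lowest KO mean of the set, 0.306 CPM, rested on 88 UMIs over the 3 KO embryos, whereas Gm32352 had only 13 UMIs over the 3 WT embryos. At most 0.325% of the barcodes of a library were shared with another library. The labels name separate embryos, and the test of Het against WT measures the spread between them.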

How the data were processed

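Single-cell RNA-seq libraries (10x Genomics 3′, version 3 chemistry) of the cortex of 10 mouse embryos were used. The authors deposited, per the labels made with Cell Ranger 6.0.2 on mm10, raw UMI counts per gene and barcode for each embryo, without normalization. The methods name another release of Cell Ranger, and the settings of counting are not given in the sources used here.

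A cell was kept from 1000 UMIs on, with up to 10% of them mitochondrial. Counts were summed per embryo and divided by the sum of all kept UMIs (CPM), with no pseudocount. UMIs of 3′ libraries do not scale with gene length, so levels of different genes are compared as UMIs. The members and gene lists were chosen with earlier results of these data known.

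Cells were clustered with Seurat 5.3.0 in R 4.3.3 after integration of the embryos, with 2000 variable genes, 30 principal components and resolution 0.4. A cluster took the class with the highest mean z-score of markers if that reached 0.5 and if 3 or more markers were each detected in 10% of its cells, without markers that are members. Among classes within 1 of the highest score the one with more markers among the 10 leading genes was taken, and ties within 0.4 stayed unnamed. Scrublet in scanpy 1.11.5 marked as doublets the highest-scoring 4.80% to 8.31% of cells of an embryo, the rate expected from the number of barcodes, since its own thresholds marked few. Marked cells were kept except where stated.

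Het and WT were compared with edgeR 4.0.16 (filterByExpr, TMM, quasi-likelihood test) on all 10 embryos, and with DESeq2 1.42.0 as an alternative. The test was tested on simulated data for Het against WT over 17647 genes, in which 56 of 100 genes changed 1.5-fold and 79 of 100 changed 2-fold were called. Of the genes left unchanged in the same draw, 6 were called higher or lower. The draw covered genes of all levels, so it does not give the recovery at the level of the set. Python 3.11.15 (pandas 2.3.3, numpy 2.4.6, scipy 1.17.1) was used for all other values. Genes were named if they were among the 20 with the highest KO mean, the 10 with the largest ratio over at least 60 KO UMIs, in a gene list, called in Het, among the leading genes of a class, next to a limit of the rule or within 1 Mb of each other or of Gatad2b. The values of 1 member that this rule names are not reported here, and it is kept in all counts and sums. Further members were named after their values were seen to describe a role. Alternatives concerned the cells kept, doublets, normalization, limits of the rule, the test, its terms and each embryo left out. Promoter sequences are from RefSeq and gene positions from GENCODE, both on GRCm38.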

Additional observations from a re-analysis of the deposited data

Results flagged for a closer look

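Among the 4 Het embryos, 1 of 71 genes had an embryo set apart by a gap test that flags about 1 in 20 groups by chance. It was Hmga1b, an architectural chromatin protein gene with a near-identical copy, at 0.247 CPM in Het 3 and 0.157 to 0.172 CPM in the other Het embryos. Het 4 was not set apart in any of the 71 genes. With 4 values the test flags only very wide gaps, and it did not flag Hspa1b, for which Het 4 lay with the WT embryos. The lack of a flag thus does not show that Het 4 was like the other Het embryos.

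The barcodes that the filters on UMIs and mitochondrial share left out were not part of the comparisons, and the set was seen there too. Its summed level in them was 74.0 ± 6.37 CPM (SD, n = 3) in the KO embryos, against 31.5 ± 3.30 CPM in WT (n = 3), from 29.5 to 35.3, and 35.9 ± 1.78 CPM in Het (n = 4). No test was made, since the set was chosen from the same embryos.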

How the results depend on the processing

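The number of genes that meet the rule, 71, was 43 with a WT limit of 0.5 CPM and 18 with a ratio of 3. It was 53 to 78 under the other settings of cells, scaling and limits and 72 to 93 with each embryo left out in turn. The genes shared with the 71 were 70 of 73 at 3000 UMIs per cell, 56 of 78 at 5% mitochondrial UMIs and 63 of 71 without doublets. With WT and KO exchanged in the rule, 95 genes met it. The genes called in Het against WT, 525, were 1023 with DESeq2, 41 with the library prefix as a term, 159 with the WT and Het embryos alone and 74 to 1829 with each embryo left out in turn. Those of the set, 16, were 1 with the prefix, 3 with the WT and Het embryos alone and 2 to 29 with each embryo left out. Of 303 values of the 16 called genes of the set in Het against WT, 164 kept their direction and side of the threshold, 139 kept the direction and lost the call, and 0 turned around. These 16 were taken for being called higher, and the settings reuse the same embryos, so their direction was largely fixed in advance. Of all 71 genes, 67 stayed above 0 with the prefix as a term. The 200 ratios of KO to WT of the 20 highest genes, settings chosen after seeing the data, stayed between 1.87 and 12.1. The rule had demanded a ratio of at least 2 of these genes. The median position of Het was 25.9% to 29.3% with each embryo left out in turn and 31.9% at 5% mitochondrial UMIs.

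With the replicate number as a block, 1850 genes and 29 of the set were called, which is close to the fit without Het 4 (1829 and 29), since Het 4 is alone in its block. The numbers only name the embryos. Embryos of the same number had correlations of their deviations from -0.19 to 0.13, and not every embryo was nearest to its own number.

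For the share of the KO UMIs of the set, resolution 0.8 gave 22.3% in layer V-VI-like, 21.9% in layer II-IV-like, 11.9% in subventricular zone-like and 6.33% in dividing cells. The median over genes was 24.1% in layer V-VI-like, 5.30% in subventricular zone-like, 3.57% in dividing and 0% in erythroid-like cells. With a KO embryo left out, the shares were 27.8% to 31.0% in layer V-VI-like, 24.2% to 25.6% in layer II-IV-like, 10.5% to 11.3% in subventricular zone-like, 7.32% to 8.08% in dividing and 0.0257% to 0.0668% in erythroid-like cells. The cause of these differences was not tested. Depth limits the values of genes with few UMIs, as Gm32352 with 13 UMIs in WT.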
